A study of Homo sapiens with 16 samples.

Results

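The 10 genes described here, IQCN, FGF18, APOE, IL13, TUBB3, MAFA, IFITM10, RNF225, BAAT and TBR1, were nearly silent in untreated Jurkat cells and higher after hydrogen peroxide, and each starts shortly behind an expressed gene on the same strand. They were chosen from the 60662 genes counted by their low control level, their rise and their position, so the rise itself is described and not tested. All 10 passed the filter on low counts and were among the 14092 genes tested. RNA-seq had been done on Jurkat E6-1, an established human T cell line labelled WT in genotype and Lymphoma in cell type, in 8 untreated libraries taken at 0 h and 8 libraries from cells suspended in phosphate-buffered saline (PBS), given 10 µM hydrogen peroxide and collected at 4 h. The groups therefore differ in time and medium as well as in peroxide, and these cannot be told apart here. In bulk RNA, a change per cell and a change in the share of cells that make a transcript cannot be told apart either. The names of the tables place 4 libraries of each group in each of 2 batches, and no source used here says what a batch was.

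Transcription by RNA polymerase II does not stop at the end of a gene's mature message. The transcript is cut at the poly(A) site by the cleavage and polyadenylation factors, and the polymerase is released some distance further on with the help of PCF11 and the exonuclease XRN2. Under heat, salt and oxidative stress, polymerases are known to continue far past the usual end of many genes, and the RNA made there can run into the next gene on the same strand. A count per gene does not show where a transcript began, so RNA started at a gene's own promoter and RNA running in from its neighbour cannot be told apart in these tables.

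The promoters of 8 of the 10 genes were matched in RefSeq (GRCh38.p14), as windows of 250 bases before to 50 bases after a start site, 13 windows in all. MAFA and IFITM10 are named only. The motif of AP-1, the dimer that JUND and other JUN and FOS proteins form, was searched as TGANTCA on both strands and was found in 2 of the 13 windows, 1 each of IQCN and TUBB3, and in 7.71% of the 35116 promoter windows of the table. In IQCN (chr19:18274403-18274702, minus strand) it started 25 bases before the start site, and in TUBB3 (chr16:89921675-89921974, plus strand) 21 bases before the first of its annotated starts. Both are shown because they are the members with the highest levels after peroxide. Capitals mark the AP-1 letters.
IQCN: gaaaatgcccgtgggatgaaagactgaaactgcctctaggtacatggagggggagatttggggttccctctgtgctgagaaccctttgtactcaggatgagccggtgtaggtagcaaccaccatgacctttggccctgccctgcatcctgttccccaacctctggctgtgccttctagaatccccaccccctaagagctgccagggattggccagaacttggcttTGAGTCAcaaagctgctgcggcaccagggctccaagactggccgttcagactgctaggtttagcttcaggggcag
TUBB3: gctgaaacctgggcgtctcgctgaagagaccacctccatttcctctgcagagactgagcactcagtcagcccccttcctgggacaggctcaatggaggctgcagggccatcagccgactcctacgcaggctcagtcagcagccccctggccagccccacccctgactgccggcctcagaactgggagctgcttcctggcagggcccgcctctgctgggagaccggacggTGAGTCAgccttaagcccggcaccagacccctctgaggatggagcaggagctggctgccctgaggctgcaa
The TATA letters TATAAA, searched on both strands, were found in 2 of the 13 windows, 1 each of IL13 and BAAT, and in 11.5% of all windows. In IL13 (chr5:132657923-132658222, plus strand) they started 31 bases before the start site and are in capitals in the window shown next, because IL13 is an inducible cytokine gene with a promoter of its own.
IL13: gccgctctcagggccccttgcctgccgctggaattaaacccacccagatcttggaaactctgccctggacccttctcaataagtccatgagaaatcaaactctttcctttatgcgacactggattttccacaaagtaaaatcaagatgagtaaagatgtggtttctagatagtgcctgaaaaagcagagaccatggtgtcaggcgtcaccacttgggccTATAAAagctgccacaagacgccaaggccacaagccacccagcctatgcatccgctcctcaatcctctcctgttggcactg
The poly(A) signal AATAAA, searched on the gene's own strand, was found in 1 of the 13, that of TBR1 (9.84% of all windows), and the cyclic AMP response element TGACGTCA, on both strands, in 0 of the 13 (1.85% of all). The GC box GGGCGG was found in 5 of the 13 and in 45.0% of all windows. The GC content of the 13 windows ran from 36.3% to 79.0%, beside a median of 58.7% over all windows. In BAAT the TATA letters started 202 bases before the start site. A match describes letters only, and none of the motifs searched was found in all 8 genes.

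Libraries held 5556553 to 15720881 reads in genes. The T cell markers fixed for the label check were all present, with 12 of 12 tested and their summed level between 3058 and 3968 CPM, reads scaled to the size of the library, in controls and between 3092 and 3916 CPM after peroxide; CD3G, CD2, CD28 and BCL11B of the 12 fell, beside 24.3% of all genes tested. Reads that fell outside annotated genes numbered 15.3 ± 1.02 per 100 reads in genes in the 8 controls and 17.3 ± 2.07 in the 8 peroxide libraries (mean ± SD). A two-sided exact permutation test gave p = 0.0280, or 0.0429 after adjustment over 3 comparisons. In batch 1 they went from 14.7 ± 1.03 to 19.1 ± 1.12 (n = 4 each; exact permutation p = 0.0286, adjusted 0.0429, the smallest raw p possible with 4 against 4). In batch 2 they were 15.9 ± 0.647 and 15.5 ± 0.105 (exact permutation p = 0.343), a difference of the opposite sign.

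IQCN (ENSG00000130518.17, chromosome 19), which encodes an IQ-motif protein of sperm, was the most abundant of the 10 after peroxide. Levels are given as CPM with TMM scaling of library sizes. IQCN had 0.563, 1.66 and 2.68 CPM as lowest, median and highest control and 126.6, 188.9 and 262.5 CPM as lowest, median and highest peroxide library. Its log2 fold change of 6.68 ± 0.22 (SE) was rank 4 of the 14092 genes tested. The gene lies 5.25 kb behind JUND, a subunit of AP-1, in GENCODE release 29. JUND had 40.1 to 67.7 CPM in controls and 289.2 to 611.8 CPM after peroxide, and it rose by 3.05 ± 0.15 on the log2 scale (adjusted p = 1.34e-12, edgeR). The libraries of the 2 groups did not overlap for either gene. IQCN was thus the only member whose upstream gene was called at more than a log2 fold change of 1, and its own fold was larger still: it held 3.45 ± 1.36 reads per 100 JUND reads in controls and 47.3 ± 14.7 after peroxide; here and in the other pairs the error is the SD over 8 libraries. Per kb of exon, the IQCN level was 0.702% of that of JUND in controls and 9.62% after peroxide.

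The secreted signals FGF18 and IL13 were low in every control. FGF18 (ENSG00000156427.8, chromosome 5), a fibroblast growth factor, had 0.0831, 0.255 and 0.751 CPM as lowest, median and highest control and 3.26, 6.91 and 11.03 CPM after peroxide, a log2 fold change of 4.58 ± 0.31. It starts 8.52 kb behind NPM1, the abundant nucleolar chaperone nucleophosmin. NPM1 had 254.1 to 454.7 CPM in controls and 379.2 to 659.1 CPM after peroxide, ranges that overlap, and rose by 0.64 ± 0.07 on the log2 scale (adjusted p = 3.11e-07, edgeR). FGF18 held 0.0921 ± 0.0491 reads per 100 NPM1 reads in controls and 1.33 ± 0.476 after peroxide.

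IL13 (ENSG00000169194.9, chromosome 5), the type 2 cytokine interleukin 13, had 0.0786, 0.309 and 0.997 CPM as lowest, median and highest control and 3.26, 6.00 and 10.1 CPM after peroxide, a log2 fold change of 4.23 ± 0.29. Its upstream gene RAD50, a double-strand break repair protein, had 6.94 to 10.9 CPM in controls and 6.36 to 10.5 CPM after peroxide. RAD50 stood at -0.16 ± 0.12 on the log2 scale (adjusted p = 0.274, edgeR) and was not called. The ratio went from 3.68 ± 2.88 to 81.5 ± 36.8 IL13 reads per 100 RAD50 reads. Per kb of exon IL13 stood at 275.9% ± 124.5 of the RAD50 level after peroxide, so here the downstream gene was covered more deeply than its neighbour. Another annotated gene, ENSG00000283782, lies over RAD50 on the same strand; reads shared by overlapping genes may not have been counted, so the RAD50 level can be understated. TH2LCRR, on the opposite strand over IL13, had 20 control and 46 peroxide reads and may share reads with it. IL4, the sister cytokine gene 12.9 kb further on, had 23 reads summed over the controls and 20 over the peroxide libraries and was below the filter. Among 9 markers of type 2 T cells, IL4 included, 3 were tested; GATA3, a factor that drives that lineage, and CCR4 fell by 0.49 and 0.69 on the log2 scale (adjusted p = 0.000155 and 0.00355, edgeR) and PTGDR2 stood at 0.02 ± 0.19.

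APOE and BAAT belong to liver metabolism, where apolipoprotein E carries lipids and BAAT joins bile acids to amino acids. APOE (ENSG00000130203.10, chromosome 19) had 0.114, 0.416 and 0.979 CPM as lowest, median and highest control and 4.22, 7.77 and 12.8 CPM after peroxide. Its log2 fold change of 4.05 ± 0.24 was the smallest of the 10. It starts 2.065 kb behind TOMM40, the channel of the outer mitochondrial membrane, which stood at 116.0 ± 26.6 and 132.3 ± 15.4 CPM. TOMM40 rose by 0.21 ± 0.08 (adjusted p = 0.0309, edgeR), a call that was lost without control 3, 5, 6 or 7 or peroxide 3, 4, 5 or 7 (adjusted p 0.0518 to 0.0754, edgeR). It was also lost scaled by total counts, without the filter, without a batch term, with a replicate block and in batch 1 alone, where the log2 difference was 0.06 (adjusted p = 0.717, edgeR). APOE held 0.430 ± 0.243 reads per 100 TOMM40 reads in controls and 6.197 ± 1.29 after peroxide. ENSG00000280087 overlaps APOE on the same strand and may share its reads. APOC1, the next apolipoprotein gene 4.85 kb behind APOE, had 5 reads summed over the controls and 5 over the peroxide libraries.

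BAAT (ENSG00000136881.11, chromosome 9) had 0.0786, 0.219 and 0.612 CPM as lowest, median and highest control and 3.49, 6.86 and 9.34 CPM after peroxide, a log2 fold change of 4.46 ± 0.24. It starts 4.11 kb behind MRPL50, a protein of the mitochondrial ribosome, which went from 31.9 ± 7.45 to 40.9 ± 7.93 CPM and rose by 0.38 ± 0.08 (adjusted p = 0.000396, edgeR). That call was lost in batch 1 alone (adjusted p = 0.0570, edgeR) and without a batch term (adjusted p = 0.0526, edgeR). BAAT held 0.915 ± 0.475 reads per 100 MRPL50 reads in controls and 16.6 ± 3.95 after peroxide. FYTTD1P1, a pseudogene annotated inside BAAT on the same strand, had 5 control reads and 106 peroxide reads, summed over libraries. Of 14 hepatocyte markers 13 were below the filter, and APOB, FGA and FGG, which encode plasma proteins, had 0 reads in every library. Others of that list had more reads after peroxide, summed over libraries: APOA1, an apolipoprotein, had 3 and 51 reads, ALB, albumin, 5 and 21, and HP, haptoglobin, 5 and 13. TF had 12 and 22, TTR 1 and 5, APOA2 1 and 3, AMBP 0 and 3 and FGB 0 and 2. Fewer reads after peroxide were counted for CYP3A4 (28 and 25) and SERPINA1 (1 and 0). The 1 tested, CYP2E1, stood at 0.34 ± 0.14 (adjusted p = 0.0536, edgeR).

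TUBB3 and TBR1 are genes of neurons, a beta tubulin and a T-box factor of the cortex. TUBB3 (ENSG00000258947.7, chromosome 16) had 0.357, 0.570 and 0.943 CPM as lowest, median and highest control and 8.06, 10.6 and 17.9 CPM after peroxide, a log2 fold change of 4.34 ± 0.24. Beta tubulin genes are near-identical in parts, and reads that fit several of them may not have been counted, so its level is uncertain. The expressed gene nearest before it is MC1R, the melanocortin receptor, 0.415 kb away. MC1R went from 5.93 ± 0.935 to 12.1 ± 3.69 CPM, with all 8 peroxide libraries above all controls, and rose by 1.00 ± 0.16 (adjusted p = 1.92e-05, edgeR). TUBB3 held 10.3 ± 4.51 reads per 100 MC1R reads in controls and 105.8 ± 45.3 after peroxide. ENSG00000198211 on the same strand and ENSG00000259006 on the opposite strand overlap TUBB3, and shared reads may not have been counted. MC1R itself starts behind TCF25, which was added after the positions were seen: TCF25 went from 115.4 ± 4.28 to 128.4 ± 12.8 CPM, and TUBB3 held 0.506 ± 0.170 and 9.46 ± 3.05 reads per 100 TCF25 reads. DEF8, 9.16 kb behind TUBB3, was expressed in both groups, at 71.3 ± 8.14 and 66.9 ± 7.00 CPM (log2 difference -0.09 ± 0.07; adjusted p = 0.282, edgeR).

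TBR1 (ENSG00000136535.15, chromosome 2) had 0, 0.229 and 0.563 CPM as lowest, median and highest control and 1.69, 3.91 and 7.94 CPM after peroxide, a log2 fold change of 4.38 ± 0.26. It starts 4.38 kb behind PSMD14, a deubiquitinase of the proteasome lid. PSMD14 had 144.5 to 162.5 CPM in controls and 167.3 to 216.4 CPM after peroxide and rose by 0.31 ± 0.05 (adjusted p = 1.88e-05, edgeR). TBR1 held 0.150 ± 0.122 reads per 100 PSMD14 reads in controls and 2.36 ± 0.948 after peroxide, and per kb of exon its level was 1.89% of that of PSMD14, the lowest share of the 9 pairs described. SLC4A10 and ENSG00000251621 overlap TBR1 on the same strand and ENSG00000224076 on the other, so reads may be shared. Of 12 neuron markers 3 were tested: SYN1 and SLC17A7 rose by 0.89 ± 0.21 and 0.85 ± 0.22 (adjusted p = 0.00157 and 0.00333, edgeR), and SNAP25 stood at 0.00 ± 0.15. NEUROD6 and ELAVL4 had 0 reads in every library. Below the filter, RBFOX3, the neuronal splicing factor, had 15 control and 88 peroxide reads, and NEUROD2 had 3 and 25. SLC17A6 had 0 and 3 and STMN2 0 and 1. Fewer reads after peroxide were counted for MAP2 (18 and 14), NEFL (12 and 10) and DCX (1 and 0).

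MAFA, IFITM10 and RNF225 had the fewest control reads. MAFA (ENSG00000182759.4, chromosome 8), a transcription factor of pancreatic beta cells, had 6 control reads, with none in 5 of the 8 controls, and 331 peroxide reads. Its highest control was 0.274 CPM. Its levels after peroxide were 2.41, 4.67 and 8.14 CPM (lowest, median and highest), and its log2 fold change was 5.84 ± 0.39. With 6 control reads this SE can be too small. It starts 7.25 kb behind ZC3H3, a zinc finger protein of RNA export, which stood at 40.1 ± 3.13 and 37.7 ± 4.35 CPM (-0.09 ± 0.06; adjusted p = 0.221, edgeR). MAFA held 0.170 ± 0.289 reads per 100 ZC3H3 reads in controls and 13.2 ± 4.69 after peroxide. Of 8 beta cell markers 0 passed the filter, and INS, IAPP and PCSK1 had 0 reads in every library. MAFA-AS1, on the opposite strand beside MAFA, had 3 control reads and 41 peroxide reads; how counting treated strand is not stated, so the 2 genes may share reads. RHPN1-AS1, the next gene with a symbol on the strand of MAFA, fell by 0.96 on the log2 scale.

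IFITM10 (ENSG00000244242.2, chromosome 11), a relative of the interferon-induced transmembrane proteins, had 6 control reads, with none in 5 of the 8 controls, and 278 peroxide reads. Its highest control was 0.274 CPM. It had 2.33, 4.37 and 6.67 CPM after peroxide, a log2 fold change of 5.57 ± 0.37. It starts 2.16 kb behind CTSD, the lysosomal protease cathepsin D, which stood at 48.5 ± 4.93 and 51.7 ± 10.3 CPM (0.08 ± 0.09; adjusted p = 0.478, edgeR) and was called higher in batch 2 alone (0.24; adjusted p = 0.0142). IFITM10 held 0.158 ± 0.243 reads per 100 CTSD reads in controls and 8.57 ± 3.95 after peroxide. Of the 6 control reads of MAFA and of IFITM10, 3 each came from control 3, and without that library the log2 fold changes were 6.45 and 6.13. A gene that overlaps both IFITM10 and CTSD, ENSG00000250644, is annotated on the same strand, and reads shared with it may not have been counted.

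RNF225 (ENSG00000269855.2, chromosome 19), a RING finger gene with an exon length of 990 bases, had 11 control reads, with none in 3 of the 8 controls, and 359 peroxide reads. Its median and highest controls were 0.0754 and 0.375 CPM. It had 2.41, 4.55 and 9.88 CPM after peroxide, a log2 fold change of 5.18 ± 0.45. LINC02560, the next gene on that strand, 3.14 kb behind RNF225, went from 0.163 ± 0.135 to 3.39 ± 1.55 CPM and rose by 4.29 ± 0.39 (adjusted p = 1.12e-08, edgeR). RNF225 and LINC02560 were thus higher together. A next gene here starts past the end of the member, and genes named only by an identifier were left out. Genes that overlap a member, such as SLC4A10 over TBR1, are thus not among the next genes. Of the genes next behind the other 9 members 0 were called higher, but 7 were below the filter and could not be called. Among those 7, PDE4C behind IQCN had 1 control and 18 peroxide reads, TRMT112P4 behind BAAT 0 and 9, and SMIM23 behind FGF18 1 and 8. KRT18P46 behind TBR1 had 0 and 1, FAM99B behind IFITM10 had 0 in every library, and IL4 and APOC1 are given above. The 9 lie 3.57 to 324.8 kb behind their members, so they are not alike in distance.

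**Figure D1:**
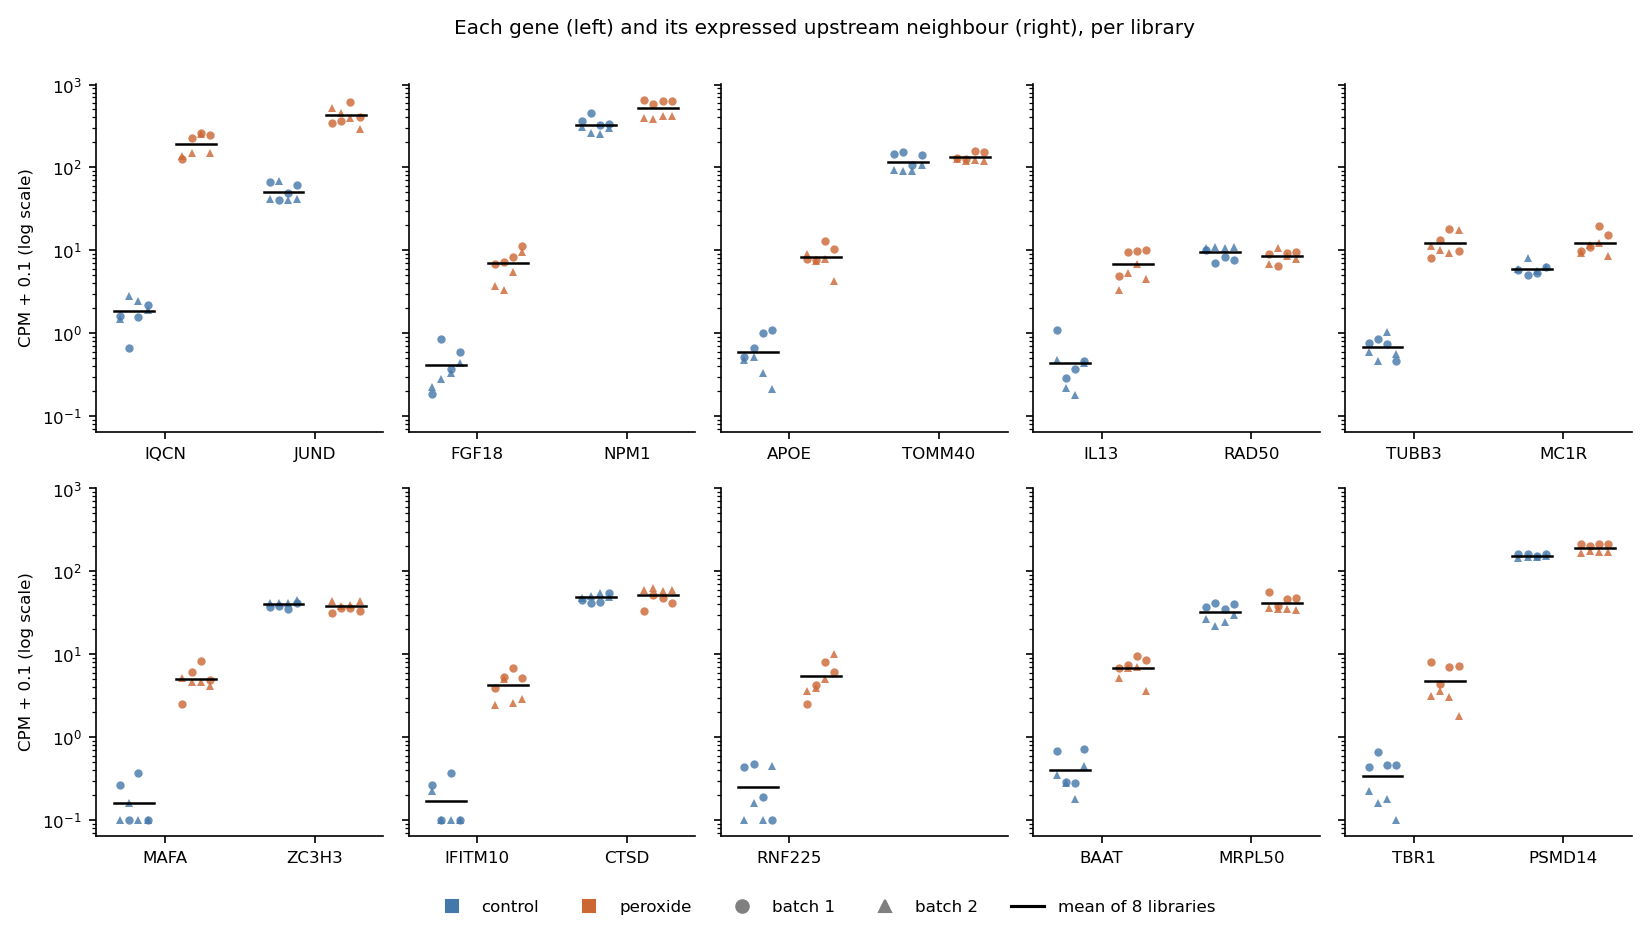
CPM plus 0.1 on a log axis for each gene and, except for RNF225, its upstream neighbour in 8 control and 8 peroxide libraries, with circles for batch 1, triangles for batch 2 and a line at the mean. Every member's peroxide libraries lie above its controls, and of the upstream genes JUND shows the widest separation.

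In all 10 members every peroxide library lay above every control, which held for 6.76% of the 14092 genes tested, and all 10 were called higher, beside 24.1% of genes tested. These counts follow from how the members were chosen. Among the 10 upstream genes, taken by position and control level, 7 were called higher, among them JUND, NPM1, TOMM40, MC1R, MRPL50 and PSMD14, and 0 lower. Over all genes tested 24.1% were called higher and 24.3% lower (3391 and 3419 genes, or 2822 and 4375 scaled by total counts). Each upstream gene entered through a member chosen for its rise, so these genes are not a set chosen apart from the treated libraries. The median log2 fold change of the members was 4.52. Reads per 100 reads of the upstream gene were above all controls in 8 of 8 peroxide libraries for each of the 9 pairs described. With reads summed over each group, this ratio was 10.3 to 71.6 times higher after peroxide, with TUBB3 per MC1R lowest and MAFA per ZC3H3 highest.

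**Figure D2:**
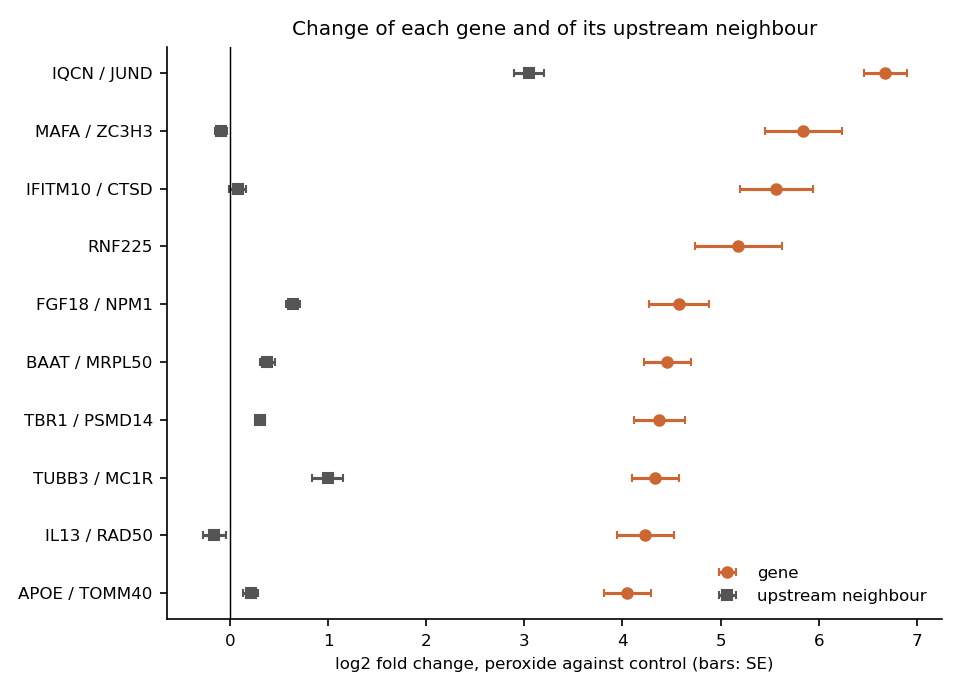
Log2 fold change of each member (circles) and, except for RNF225, of its upstream gene (squares), peroxide against control, with SE as bars. Members lie between 4.05 and 6.68, while the upstream genes lie between -0.16 and 3.05.

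**Figure D3:**
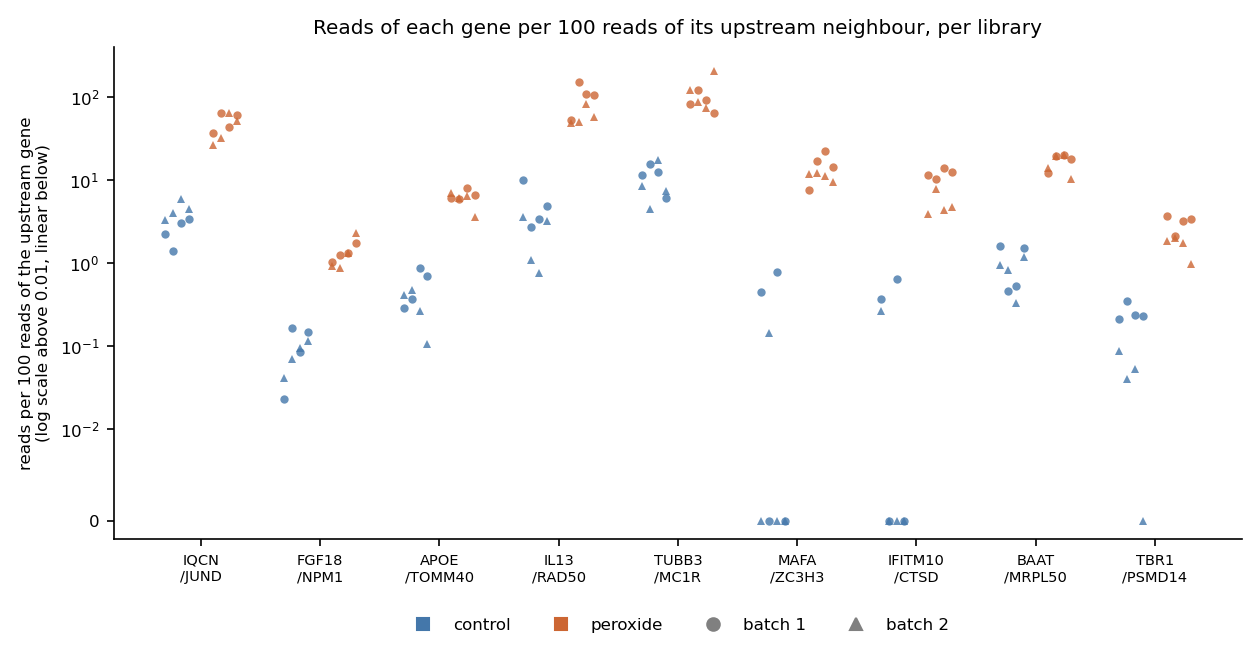
Reads of each member except RNF225 per 100 reads of its upstream gene in every library, on an axis that is logarithmic above 0.01 and linear below. Control and peroxide libraries do not overlap for any pair; IL13 per RAD50 and TUBB3 per MC1R reach the highest mean ratios after peroxide, 81.5 and 105.8.

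The level relative to the neighbour differed widely between pairs. After peroxide, the member's level per kb of exon was 1.89% of that of the upstream gene for TBR1, 2.57% for FGF18 and 5.60% for IFITM10. It was 9.62% for IQCN, 10.2% for APOE, 16.4% for BAAT and 19.7% for MAFA. IL13 and TUBB3 stood at 275.9% and 132.9%, and they follow the upstream genes with the lowest levels. These shares showed no order by distance: TBR1 at 4.38 kb and BAAT at 4.11 kb stood at 1.89% and 16.4%.

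The batches were compared within the peroxide libraries, a contrast that did not enter the choice of the genes. With edgeR and Benjamini-Hochberg adjustment over all genes tested, 3 of 10 members were called, all lower in batch 2, beside 37.9% of all genes called, 20% lower and 17.9% higher. TBR1 had 4.34 to 7.94 CPM in the peroxide libraries of batch 1 and 1.69 to 3.48 CPM in those of batch 2, a log2 difference of -1.248 ± 0.22 (adjusted p = 0.000213 with edgeR). IL13 differed by -0.78 ± 0.26 (adjusted p = 0.0246) and IFITM10 by -0.72 ± 0.27 (adjusted p = 0.0401) in the same edgeR fit. Scaled by total counts, TBR1 alone was called, and without the filter IQCN and FGF18 were called as well. Reads outside genes were also fewer in the peroxide libraries of batch 2 than in those of batch 1 (15.5 and 19.1 per 100); their part in the difference was not tested. The change from control to peroxide was not called different between the batches in any member: the interaction gave 0 of 10 at an adjusted p under 0.05 with edgeR, 0 at an unadjusted p under 0.05 and 0 with DESeq2, beside 4.88% of genes called with edgeR. Interaction estimates (log2, batch 2 minus batch 1) ran from -0.89 ± 0.52 (SE) for IQCN to 1.89 ± 1.26 for MAFA. With errors of this size, 0 calls do not show that the effects were equal. Without the filter on low counts the interaction was called in IQCN. TBR1 controls were lower in batch 2 too, at 0.0658 against 0.407 CPM, and its log2 fold changes were 4.06 ± 0.31 in batch 1 and 5.19 ± 0.47 in batch 2. Those controls hold few reads, so these SE can be too small. The interaction for TBR1 was 1.10 ± 0.69 (adjusted p = 0.383, edgeR) and was not called.

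The 10 genes were set beside all other low genes. Genes with a mean under 5 CPM over all 16 libraries were sorted by where they start relative to genes with 5 CPM or more in controls. Of 484 such genes within 10 kb behind an expressed gene on the same strand, 48.6% were called higher and 7.02% lower. Of 1144 with an expressed neighbour on the opposite strand within 10 kb and none that close ahead on their own strand, 29.02% were called higher and 10.8% lower. Of 233 that start 10 to 50 kb behind an expressed gene and lie near none on the opposite strand, 33.9% were called higher and 11.2% lower. Of 770 with none of these near, 13.9% were called higher and 18.4% lower. Of 278 that overlap an expressed gene on their own strand, 34.2% were called higher. Over all 2909 low genes with a known position the shares were 29.2% and 12.5%. The median levels of these 5 groups were 2.17 to 2.36 CPM. Of the members 8 are among the 484, since IQCN and TUBB3 have higher means, and without them 227 of 476 (47.7%) were called higher. The filter lets a silent gene in through its treated libraries, so the shares were also taken without it: 32.6% of 1938 genes within 10 kb were called higher, against 5.68% of 11206 with none near. The median levels of these 2 groups were 0.339 and 0.0302 CPM, so unlike the groups after the filter they were not alike in level. The part of level in these shares was not tested. No test was made of these shares, because genes that share a neighbour are not independent.

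The share of low genes called higher was lower at each step beyond 10 kb. It was 42.3% of 97 genes within 1 kb, 58.6% of 87 at 1 to 2.5 kb, 47.1% of 140 at 2.5 to 5 kb and 48.1% of 160 at 5 to 10 kb. It was 37.7% at 10 to 20 kb, 29.8% at 20 to 50 kb, 26.1% at 50 to 100 kb and 20.1% of 1289 genes further away. The share called lower had no single direction with distance: it was 13.4% within 1 kb, 2.30% at 1 to 2.5 kb, 15.4% at 50 to 100 kb and 14.9% beyond 100 kb. Without the filter the share called higher was 29.9% to 35.2% in the bins up to 10 kb and 7.01% beyond 100 kb, in bins not matched for level. The members sit 0.415 to 9.92 kb behind their neighbours, a distance they were chosen for. IQCN and TUBB3 have higher means and are in none of these bins, and the other members are counted in the shares.

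**Figure D4:**
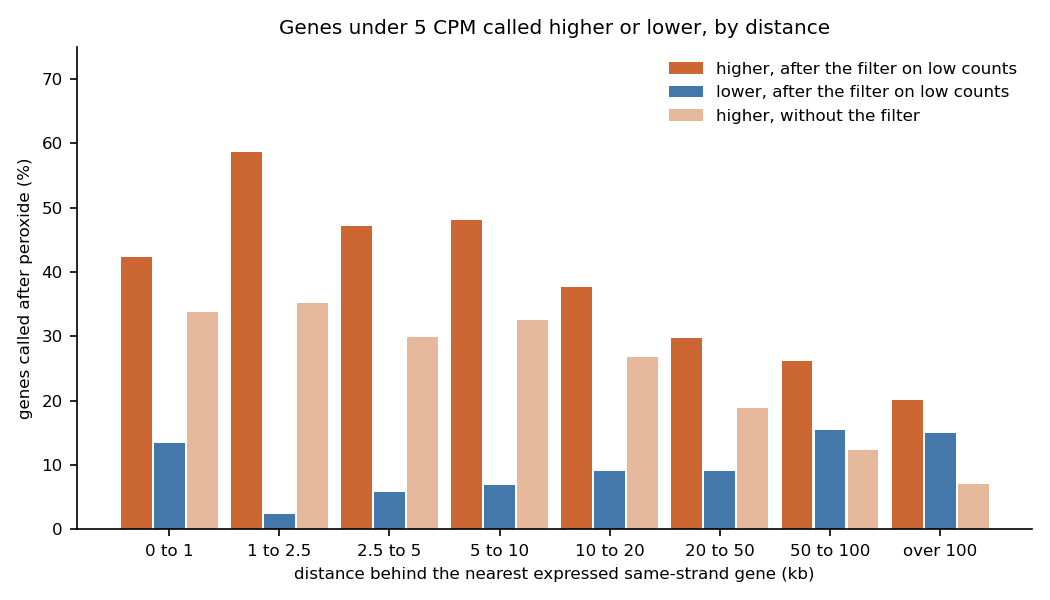
Percent of genes under 5 CPM called higher or lower after peroxide, by distance in kb behind the nearest expressed gene on the same strand, with and without the filter on low counts. The share called higher is 42.3% to 58.6% in the bins up to 10 kb and 20.1% beyond 100 kb.

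The members are a selection from a longer series of such genes. Among genes called higher with a log2 fold change of at least 4.05 and a control mean of at most 1.73 CPM, the bounds the members span, 15 start within 10 kb behind an expressed gene: the 10 members and 5 others. The other 5, named after their values were seen, are LINC02560, EFNB2 behind ARGLU1, CCNP behind AKT2, and ENSG00000261026 and ENSG00000273599 behind EGR3 and ZRANB1. Just under the fold bound lay RASD1, 9.17 kb behind PEMT, at 3.98 ± 0.41 on the log2 scale. Just past the distance bound lay CDKL2, 12.1 kb behind G3BP2, at 5.26 ± 0.34. Rises of 8-fold or more were not most frequent at the distances of the members. They were called in 4.75% of the low genes within 10 kb behind an expressed gene (3.15% without the members), in 7.30% of those at 10 to 50 kb and in 1.30% of those with none near.

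Across the 16 libraries, the genes with a symbol whose log2 CPM was most like that of IQCN were WDR47, DUSP8 and TINCR, with Pearson r of 0.992, 0.990 and 0.990. JUND was rank 32 of 14091 by the same measure, with r = 0.980. PSMD14 was rank 239 for TBR1, and NPM1 and MC1R were rank 856 and 861 for FGF18 and TUBB3. RAD50 and ZC3H3 were rank 9080 and 9638 for IL13 and MAFA. The rank 1 genes of the other members were added after the values were seen. They were RSRP1 for FGF18 (r = 0.985), AOC3 for APOE (0.991), POU3F1 for TUBB3 (0.991) and TRIM72 for MAFA (0.991). LGR5 was rank 1 for both IL13 (0.988) and IFITM10 (0.989), and SNHG19 for RNF225 (0.979). PPP1R10 was rank 1 for BAAT (0.987) and PCF11 for TBR1 (0.990). Of these genes only PPP1R10 and PCF11 are on the list of termination factors described next. These correlations are descriptions over libraries that share the difference between the 2 groups.

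Factors of 3′ end processing, termination and the Integrator complex, a list of 59 genes of which 58 were tested, moved in both directions. Of the 58, 21 rose and 11 fell, beside 24.1% higher and 24.3% lower over all genes tested. The median log2 fold change was 0.06 beside -0.01 over all genes tested. Scaled by total counts 16 rose and 14 fell, beside 2822 higher and 4375 lower of 14092 genes. Without the filter 16 rose and 14 fell, beside 5150 higher and 4326 lower. Without a batch term 14 rose and 8 fell, beside 2534 higher and 2454 lower. The smallest p-values belonged to PPP1R10, PCF11, RBBP6 and CSTF1. PPP1R10, which holds the phosphatase PP1 at the polymerase and slows it after the poly(A) site, went from 127.5 ± 15.6 to 448.8 ± 63.8 CPM and rose by 1.81 ± 0.06 (adjusted p = 3.17e-15, edgeR). PCF11, the termination factor that binds the polymerase tail, went from 130.4 ± 18.2 to 387.3 ± 109.1 CPM and rose by 1.53 ± 0.07 (adjusted p = 3.38e-13, edgeR). RBBP6, an activator of cleavage, rose by 1.14 ± 0.05, and CSTF1, a subunit of the cleavage stimulation factor, fell by 0.56 (adjusted p = 5.18e-13 and 2.36e-06, edgeR). Of 15 Integrator genes 4 rose and 4 fell, shares near those over all genes. These are RNA levels, and the activity of the factors was not measured.

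Markers of macrophages, which make APOE in many tissues, were mostly below the filter: 1 of 10 was tested, CD14, which rose from 0.267 ± 0.194 to 3.15 ± 1.10 CPM (adjusted p = 3.25e-09, edgeR), and C1QA and C1QC had 0 reads in every library. Below the filter, CD68 had 18 control and 73 peroxide reads and CSF1R had 5 and 22. LYZ had 3 and 8, FCGR1A 0 and 2 and CD163 1 and 2. Fewer reads after peroxide were counted for MSR1 (9 and 5) and C1QB (1 and 0). The summed level of that list was 0.229 to 1.246 CPM in controls and 3.03 to 7.66 CPM after peroxide. The summed hepatocyte list held 2.81 to 8.01 and 7.64 to 10.1 CPM, the neuron list 5.11 to 7.49 and 7.92 to 13.4 CPM, and the beta cell list 0.332 to 0.865 and 0.602 to 1.51 CPM. The part of such cells in the rise of the members was not tested.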

How the data were processed

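Each library has 1 deposited table of raw counts: whole reads per gene, not normalized by the authors. STAR 2.7.1a, HTSeq 0.6.1 and the build hg19 are named in the submitters' processing notes; no source used here states the counting mode, strand setting or annotation. The 5 rows that name no gene held 43.5% to 57.6% of counted reads and stayed out of library sizes. Symbols matched 99.6% of the 60662 identifiers. Strand, neighbours, gaps and exon lengths came from GENCODE release 29 (GRCh38), since the planned gene table holds no strand; this annotation matched 96.4% of identifiers (68.0% to the version), so gaps are those of that annotation and no gene coordinates are printed; promoter windows carry RefSeq's own.

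Genes were kept with edgeR's filterByExpr on the groups (edgeR 4.0.16, R 4.3.3), scaled with TMM factors and tested two-sided by quasi-likelihood in a model of batch plus group, over all 14092 genes, which held 99.6% of reads in genes. A gene was called at a Benjamini-Hochberg adjusted p under 0.05. SE was taken as the absolute log2 fold change over root F. The fold change of edgeR adds a small prior count, which draws it toward 0 where control reads are few. For the members this SE is therefore approximate and can be too small. CPM and exon levels are TMM scaled. The members and lists were chosen with earlier results of these data known. The upstream gene is the one with 5 CPM or more in controls whose end is nearest before the member; that of RNF225 is not reported here. Named are the members, their upstream and next genes, 4 termination factors with the smallest p and the 3 genes most like IQCN; others are marked or belong to marker lists. The titles call the libraries biological replicates without saying that cultures were separate, so p-values measure the spread between these libraries. Chi-square per degree of freedom between libraries of a group was 2.96 to 46.6, so none was taken as a duplicate. In simulated counts of 13560 genes, 8 against 8, calls included 25 of 50 genes changed 1.25-fold, 47 of 50 at 1.5-fold and 50 of 50 at 2-fold and at 4-fold, with 8 of 180 calls false. The changed genes were drawn from those with a mean of 5 CPM or more, so recovery of lower genes was not tried. Far fewer genes were changed than were called in the data. Alternatives were DESeq2 1.42.0, total counts, no filter, no batch term, a replicate block, each batch alone and each library left out.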

Additional observations from a re-analysis of the deposited data

Results flagged for a closer look

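In 60 groups of 8 libraries checked, 4 held a library set apart by a gap; about 1 in 20 such groups is expected to by chance. IL13 was higher in control 1 (0.997 CPM, the nearest other at 0.375), and so were its reads per 100 RAD50 reads there (10.0, the nearest other at 4.84). That control held 12 of the 28 IL13 reads of all controls. MC1R was higher in control 6 (7.97 CPM, the nearest other at 6.18). TUBB3 per 100 MC1R reads was higher in peroxide 8 (205.7, the nearest other at 121.5).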

How the results depend on the processing

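Every member was called higher in all 24 fits, with log2 fold changes of 3.72 to 7.18 over the alternatives, and 0 of 230 alternative values changed sign. The members were chosen for their rise in these same libraries, so these calls follow from the choice and are no test of it. Leaving out each library in turn gave 3189 to 3438 genes higher and 3221 to 3604 lower, 6 to 7 upstream genes called higher and 0 lower, and a median of the members of 4.45 to 4.66. In batch 2 alone that median was 4.97, and in batch 1 alone 4 upstream genes were called higher. Scaled by total counts, 2822 genes were higher and 4375 lower, 1 upstream gene (ZC3H3) was called lower, and 1 member was called lower in batch 2 within the peroxide libraries. Without the filter 5150 genes were higher, 5 members differed between batches within the peroxide libraries, 1 member (IQCN) had a called difference of effect between batches, and 5.68% of low genes with no expressed neighbour near were called higher. The numbers of the titles did not pair the libraries (correlation of same-numbered deviations -0.15 to 0.17). With a replicate block 3313 genes were higher and 3374 lower, and 6 upstream genes were called higher, TOMM40 being lost. The cause of these shifts was not tested. Leaving the members out of the position shares was chosen after seeing the data. Control levels of the members rest on 6 to 156 reads over 8 libraries, which limits their fold changes and the SE given with them.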
